A study of Mus musculus with 6 samples.

Results

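The genes described here are 10 that mark the making and repair of skeletal muscle: the muscle-determination factors Myf5, Myod1, Myog and Myf6, the satellite cell and myoblast genes Pax7, Cdh15 and Ncam1, the fusion gene Mymk, and Runx1 and Ankrd1, which are known to rise in denervated or loaded fibres. They were taken by gene symbol from a table of 49315 genes, in which all 10 were found. Messenger RNA was counted in the gastrocnemius muscle of male C57BL6J mice that had received an adeno-associated virus of serotype 9 (AAV9) by intramuscular injection at 5 months of age, and the muscle was taken 5 months later. In 3 muscles (AAV9-HSA-CAAHR, replicates 31, 34 and 36) the transgene was CAAHR, a mouse aryl hydrocarbon receptor (AHR) that is always active because it lacks the ligand-binding domain. In the other 3 it carried green fluorescent protein (AAV9-HSA-GFP, replicates 42, 43 and 46). HSA, the promoter of human skeletal actin, restricts either transgene to muscle fibres. Since both groups had received a virus, no value below is relative to uninjected muscle. The comparison asked whether these genes differed between the groups in the way that regeneration or loss of the nerve would show.

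In adult muscle, satellite cells rest under the fibre's basement membrane and are marked by Pax7, a paired-box transcription factor. When they are activated they express Myf5 and Myod1, then Myog as they stop dividing and differentiate, and they fuse under the control of the membrane proteins encoded by Mymk and Mymx. Myf6 (also called MRF4) is the factor of the family that mature fibres keep at a high level. When a fibre loses its nerve, Myog and Runx1 are known to rise in its own nuclei, and so do acetylcholine receptor subunits and the adhesion molecule Ncam1.

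Library totals ranged from 43432994 to 58825752 counts. Levels are CPM, a gene's counts relative to the library total after TMM scaling (trimmed mean of M values), and a fold change is the edgeR estimate, CAAHR minus GFP on the log2 scale, with its standard error (SE). A gene was called when its p-value from the edgeR quasi-likelihood test, adjusted by the Benjamini-Hochberg method over 15847 tested genes, was under 0.05. By that rule 7.6% of tested genes were called, 3.04% higher and 4.57% lower in CAAHR muscles. Ahr, the gene delivered, averaged 16.7 CPM against 2.29 CPM. Further differences between the groups touch the genes below, and their part in the results was not tested. Values given beside them are description. The summed level of 9 slow fibre markers was 2783, 648.8 and 2518 CPM in CAAHR replicates 31, 34 and 36 and from 228 to 461 CPM in GFP muscles, with 9 of 9 markers fitted higher, 1 of them called and none absent. The summed level of 13 leukocyte markers ran from 29.5 to 38.9 CPM against 77.0 to 194 CPM, with 13 of 13 fitted lower and 6 called. The paper reports by quantitative PCR that selected immune genes were not lower in CAAHR muscle than in mice given no virus. It ascribes this to a local immune response promoted by the GFP virus, which was not tested here. Fast fibre markers such as Myh4, which predominate in gastrocnemius, were the most abundant of these lists in every library. The summed level of 11 of them was from 148600 to 204800 CPM in CAAHR and from 209500 to 216500 CPM in GFP muscles, so the groups did not overlap, with 9 of 11 fitted lower, 3 called lower and none absent.

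Of the 10 genes, 9 passed the filter on low counts and 1 of those 9 was called, a share of 11.1%. This is close to the 7.6% of all tested genes. Ankrd1 rose. The fitted change was 1.02 for Myog and -0.59 for Myf6 on the log2 scale, and neither passed the threshold. Pax7, Myf5, Myod1, Cdh15, Ncam1 and Runx1 had intervals that include no change. The median fitted change of the 9 was 0.15 on the log2 scale, beside 0.01 over all tested genes, and the groups did not overlap for 2 of the 9 (Ankrd1 and Myog), where they did not overlap for 29.9% of all tested genes.

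**Figure D1:**
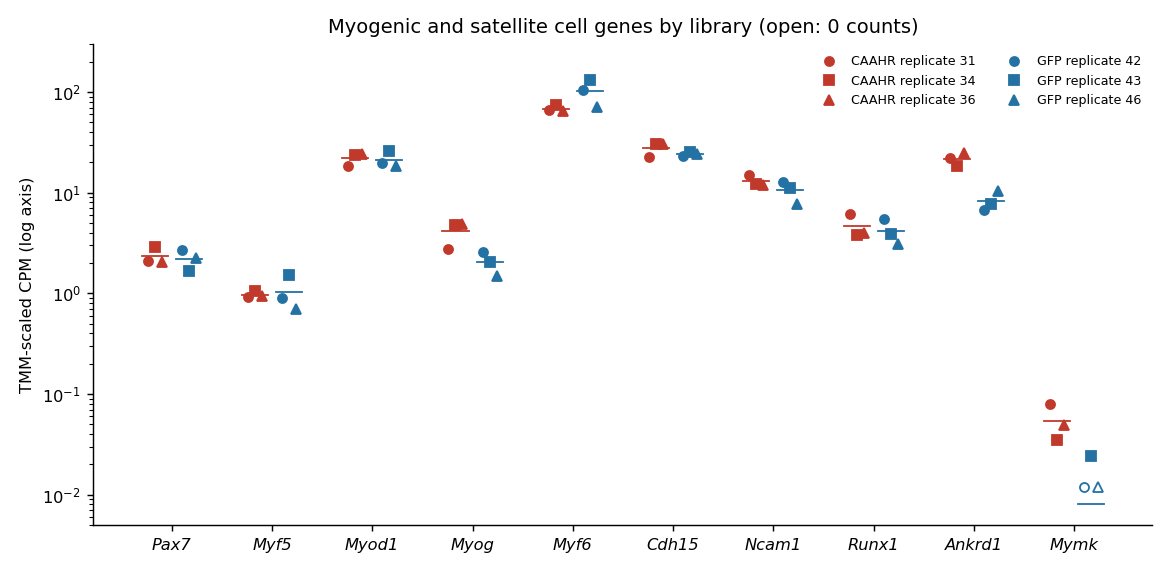
TMM-scaled CPM (log axis) of the 10 genes in each library, with CAAHR libraries in red and GFP libraries in blue, symbols for replicates and a line at each group mean. The 3 CAAHR values of Ankrd1 (18.5 to 24.9 CPM) and of Myog (2.75 to 4.92 CPM) lie above all GFP values, Myf6 is the most abundant gene and Mymk has 0 counts in 2 GFP libraries (open symbols at the foot of the axis).

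Per kilobase of exon, which allows genes to be compared with each other, the 10 stood in the same order in both groups. Myf6 led with a mean level of 54.2 CPM per kb in CAAHR and 81.8 in GFP muscles. Myod1 followed at 11.8 and 11.4 CPM per kb and Cdh15 at 8.57 and 7.42. Next came Ankrd1 at 7.57 and 2.86 CPM per kb, Myog at 2.77 and 1.37, and Ncam1 at 1.49 and 1.22. Myf5, Pax7 and Runx1 were all under 0.5 CPM per kb, and Mymk was at 0.0360 and 0.00530. Myf5, Pax7 and Runx1 could not be ordered, since the ranges of each neighbouring pair overlapped in both groups. Cdh15 and Ankrd1 overlapped among CAAHR libraries and Myog and Ncam1 overlapped among GFP libraries, while in the other group each of these pairs was apart.

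Ankrd1 (ENSMUSG00000024803, chromosome 19, 36111961 to 36120099, GRCm38) encodes a cardiac ankyrin repeat protein that binds titin in the sarcomere and also enters the nucleus. It was at 22.1, 18.5 and 24.9 CPM in CAAHR replicates 31, 34 and 36. In GFP replicates 42, 43 and 46 it was at 6.76, 7.69 and 10.3 CPM. Every CAAHR muscle was therefore above every GFP muscle, and the lowest of them was 34, the library with the least slow fibre signal of its group. The mean was 21.8 ± 3.22 CPM (SD, n = 3) against 8.26 ± 1.85 CPM, a log2 fold change of 1.40 ± 0.17 (SE), or 2.64-fold, with an edgeR adjusted p of 0.00212. Without replicate 34 it was 1.5, and with any 1 of the 6 libraries left out it was called, with a change between 1.28 and 1.60.

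Myog (ENSMUSG00000026459, chromosome 1, 134289989 to 134292548, GRCm38) encodes myogenin, the factor that commits myoblasts to differentiate and that switches on receptor genes in denervated fibres. Its counts were 139, 271 and 300 in CAAHR replicates 31, 34 and 36, against 124, 86 and 79 in GFP replicates 42, 43 and 46. In CPM these were 2.75, 4.74 and 4.92 against 2.57, 2.07 and 1.49. The groups did not overlap, but CAAHR replicate 31 lay close to GFP replicate 42. The log2 fold change was 1.02 ± 0.27 (SE), with a 95% confidence interval from 0.41 to 1.64, and its edgeR adjusted p of 0.0523 did not pass the threshold. Without CAAHR replicate 31 the edgeR adjusted p was 0.0294 with a log2 fold change of 1.24, and with any other library left out it was not called, up to 0.172 without CAAHR replicate 36. With library size only as the scaling, without a low-count filter, and with DESeq2, Myog was called.

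Ankrd1 and Myog were the tested members whose groups did not overlap, and their promoters are shown because both genes can be read against motifs of known muscle factors. The sequences are RefSeq's, build GRCm38.p6, from 250 bases before to 50 bases after the start of transcription, 5′ to 3′ in the direction of the gene. Capitals mark the E-box CANNTG, the letters bound by the muscle-determination factors, and CATTCC, the letters bound by TEAD factors, read on either strand.
Myog, chr1:134289754-134290053, plus strand: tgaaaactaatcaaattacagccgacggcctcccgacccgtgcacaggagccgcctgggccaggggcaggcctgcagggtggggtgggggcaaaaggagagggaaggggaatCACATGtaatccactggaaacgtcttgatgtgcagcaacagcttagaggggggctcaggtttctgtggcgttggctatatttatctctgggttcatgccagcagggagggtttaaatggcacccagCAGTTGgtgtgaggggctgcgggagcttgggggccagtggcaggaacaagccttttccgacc
Ankrd1, chr19:36119795-36120094, minus strand: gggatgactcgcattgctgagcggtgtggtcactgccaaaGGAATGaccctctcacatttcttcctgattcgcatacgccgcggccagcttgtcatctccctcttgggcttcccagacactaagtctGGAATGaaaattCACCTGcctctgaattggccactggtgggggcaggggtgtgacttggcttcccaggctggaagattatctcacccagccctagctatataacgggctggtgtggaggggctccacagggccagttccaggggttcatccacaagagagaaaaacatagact

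The Myog window held 2 E-boxes, CACATG beginning 138 bases before the start and CAGTTG beginning 12 bases before it. The Ankrd1 window held 1, CACCTG, beginning 111 bases before the start, and CATTCC in reverse (GGAATG) at 210 and 123 bases before it. The searched letters did not overlap each other in these windows. Of 32851 RefSeq promoters of this length, 72.3% held CANNTG and 14.7% held CATTCC. The core letters of the AHR response element, GCGTG, were found on either strand in 32.4% of promoters and in neither of these 2, which says nothing of sites elsewhere. RefSeq promoters were found for 6 of the 10 genes. GCGTG was in the windows of Pax7 and Cdh15 and in 1 of the 2 windows of Runx1, and not in that of Myf5. The Cdh15 window held 4 E-boxes and 1 Runx1 window held 3, while the other Runx1 window held CATTCC in reverse. Neither of these genes was called, so the motifs are not particular to Myog and Ankrd1. The windows of Pax7 and Myf5 held neither CANNTG nor CATTCC.

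Of the other muscle-determination factors, Myf6 was the abundant one. Myf6 (chromosome 10, 107492853 to 107494737) was at 66.9, 74.3 and 64.0 CPM in CAAHR replicates 31, 34 and 36, and at 106, 133 and 71.6 CPM in GFP replicates 42, 43 and 46. GFP replicate 46 lay within the CAAHR range and the other GFP muscles lay above it. The log2 fold change was -0.59 ± 0.20 (SE, interval -1.06 to -0.13), and the edgeR adjusted p was 0.118. Without GFP replicate 46 the change was -0.80 and was called (edgeR adjusted p 0.0186), and the call was also made without a low-count filter and with DESeq2.

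Myod1 (chromosome 7, 46376474 to 46379099), which directs the myoblast fate and is kept at a lower level in adult fibres, was at 18.4, 23.5 and 24.2 CPM in CAAHR muscles and 19.6, 25.9 and 18.4 CPM in GFP muscles, in the replicate order above. The groups overlapped, and the log2 fold change was 0.05, with an interval from -0.29 to 0.39. Its sign turned with upper quartile scaling and when any of 4 single libraries was left out. Myf5 (chromosome 10, 107482908 to 107486134), the earliest factor of the family, was near 1 CPM in both groups, with counts of 46, 60 and 57 against 43, 63 and 37. Its log2 fold change was -0.09, with an interval from -0.80 to 0.62, and it was 0.28 without GFP replicate 43.

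The ratio of Myog to Myod1 within a library does not depend on scaling. On the log2 scale it was -2.74, -2.31 and -2.29 in CAAHR replicates 31, 34 and 36, and -2.93, -3.64 and -3.62 in GFP replicates 42, 43 and 46. All CAAHR values lay above all GFP values. The difference of 0.95 had an exact two-sided permutation p of 0.1, which is the smallest that 3 libraries against 3 can give, so this test could not pass 0.05.

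**Figure D2:**
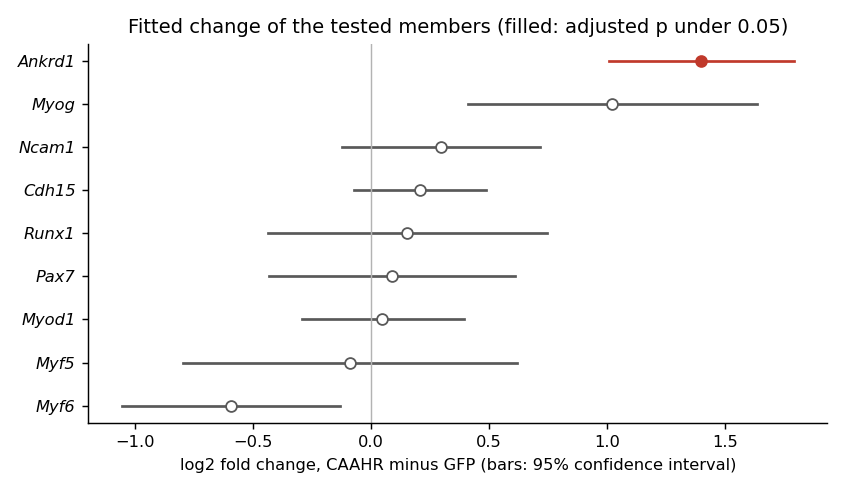
Log2 fold change, CAAHR minus GFP, of the 9 tested members with 95% confidence intervals from the edgeR fit, filled where the adjusted p was under 0.05. Ankrd1 is the called gene at 1.40, the intervals of Myog (0.41 to 1.64) and Myf6 (-1.06 to -0.13) leave out 0 without an adjusted p under 0.05, and the other 6 intervals include 0.

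Among the satellite cell genes, Pax7 (chromosome 4, 139737062 to 139833528) had 107, 163 and 126 counts in CAAHR replicates 31, 34 and 36 and 130, 69 and 119 in GFP replicates 42, 43 and 46. In CPM it was 2.35 ± 0.440 (SD, n = 3) against 2.20 ± 0.519. The ranges overlapped, and the log2 fold change of 0.09 had an interval from -0.43 to 0.61. These libraries do not tell changes of Pax7 within that interval from no change. The fitted change was -0.09 without CAAHR replicate 34 and -0.07 without GFP replicate 43. In whole muscle, a change in the number of satellite cells and a change in the RNA of each cannot be told apart.

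Cdh15 (chromosome 8, 122847966 to 122867397) encodes M-cadherin, which joins satellite cells to the fibre. It was at 22.6, 30.5 and 30.5 CPM in CAAHR muscles and 23.3, 25.1 and 24.0 CPM in GFP muscles, in the same order. CAAHR replicate 31 lay below the GFP range and the others above it, and the log2 fold change was 0.21 ± 0.13 (SE, edgeR adjusted p 0.354). Ncam1 (chromosome 9, 49502136 to 49798925), a neural cell adhesion molecule of satellite cells, denervated fibres and Schwann cells, was at 14.9, 12.1 and 11.8 CPM against 12.9, 11.01 and 7.70 CPM. The groups overlapped, with a log2 fold change of 0.30 ± 0.19 (SE, edgeR adjusted p 0.376). The summed level of 9 Schwann cell markers was from 51.1 to 84.2 CPM in CAAHR and from 82.6 to 141 CPM in GFP muscles, with 9 of 9 fitted lower, 0 called (2 at an unadjusted p under 0.05) and none absent.

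Runx1 (chromosome 16, 92601466 to 92826149), a transcription factor that protects denervated fibres from wasting, was at 6.19, 3.76 and 3.99 CPM in CAAHR replicates 31, 34 and 36 and 5.53, 3.89 and 3.08 CPM in GFP replicates 42, 43 and 46. CAAHR replicate 31 and GFP replicate 42 stood above the rest, and the groups overlapped. The log2 fold change was 0.15, with an interval from -0.44 to 0.75, and it was -0.11 without CAAHR replicate 31 and -0.03 without GFP replicate 46. Antisense genes overlap exons of Ncam1 and Runx1, with 3 and 2 counts in all 6 libraries together.

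Mymk (chromosome 2, 27061636 to 27072179), the myoblast fusion protein, was close to absent. It had 4, 2 and 3 counts in CAAHR muscles and 0, 1 and 0 in GFP muscles, and it was not tested. The ratio of 9 counts to 1, scaled for depth, was 7.62, with an exact 95% interval from 1.06 to 334 that covers counting error only and not the spread between muscles. Its partner Mymx had 7, 1 and 0 counts against 11, 0 and 4, and was not tested either.

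The genes around these 10 were read from 8 lists, given by their counts. The lists were chosen with earlier results of these data known, so their counts and medians are description and not a test. Of all tested genes 7.6% were called, 3.04% higher and 4.57% lower. The share called was 15.0% for satellite cell, 16.67% for partners and inhibitors, 6.25% for fusion and 18.18% for regenerating fibre genes. It was 21.43% for denervation, 17.65% for Ankrd1 relatives and 33.33% each for Runx relatives and proliferation genes. These last shares include Runx3 and Ccnb1, which passed the low-count filter only through their GFP libraries. The satellite cell list held 20 tested genes of 21, with 1 called higher, 2 called lower and a median log2 fold change of -0.05. Itga7, the laminin-binding integrin of satellite cells and fibre ends, rose to 212, 292 and 285 CPM from 84.4, 86.2 and 92.9 CPM. Its log2 fold change was 1.58 ± 0.14 (SE, edgeR adjusted p 0.000341), and it was called with any library left out. Vcam1, an adhesion molecule of satellite cells and of activated endothelium, fell from 3.67 ± 0.855 to 1.73 ± 0.0882 CPM (SD, n = 3), and Cxcr4, a chemokine receptor that leukocytes also carry, fell from 2.47 ± 0.608 to 1.29 ± 0.151 CPM. Vcam1 was called with any library left out. Cxcr4 lost its call without CAAHR replicate 31 or 36 or without GFP replicate 43 or 46, with edgeR adjusted p of 0.096, 0.137, 0.146 and 0.0969. Both fell beside the lower leukocyte markers given above.

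Among 18 partners and inhibitors of the muscle-determination factors, 3 were called, all lower, with a median log2 fold change of -0.23. These were Id2, Id3 and Id4, which encode inhibitors that bind the partner proteins of Myod1 and its relatives and keep them off DNA. Id3 fell from 17.1, 23.3 and 22.6 CPM to 11.98, 11.8 and 14.2 CPM, a log2 fold change of -0.73 ± 0.14 (SE, edgeR adjusted p 0.0139). Id2 changed by -1.13 and Id4 by -0.91 on the log2 scale, both at low levels of under 4 CPM. Each of these calls was lost without some single libraries. Id4 lost its call with any of the 6 left out (edgeR adjusted p from 0.0584 to 0.146) and with library size only. Id2 lost its call without CAAHR replicate 31 or 36 or GFP replicate 43 or 46 (from 0.054 to 0.112), and Id3 without CAAHR replicate 31 or GFP replicate 43 or 46 (from 0.0505 to 0.0606).

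The myoblast fusion list held 16 tested genes of 18, with a median log2 fold change of 0.01 and 1 gene called. Stab2, a membrane protein that myoblasts use in fusion and that some endothelium uses to take up hyaluronan, fell from 28.4 ± 3.18 to 11.4 ± 3.56 CPM (SD, n = 3) and was called with any library left out. The 8 endothelial markers had summed levels from 201 to 281 CPM in CAAHR and from 209 to 254 CPM in GFP muscles, with 0 called and 0 at an unadjusted p under 0.05.

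The regenerating fibre list holds embryonic and perinatal isoforms of contractile proteins and other genes such as Nes, Vim, Des, Chrng, Igf2 and H19. It had 11 tested genes of 12, a median log2 fold change of -0.18, and 2 called, both lower. Of the 11, 3 were fitted higher, not counting Nes, whose log2 fold change of 4.24e-05 was close to none. H19 had the highest fitted change, 1.12, with groups that overlapped, and was not called (edgeR adjusted p 0.141). Actc1, cardiac actin, fell from 27.4, 29.0 and 23.5 CPM to 14.7, 8.02 and 12.5 CPM, and Myl4, the embryonic light chain, fell from 7.64 ± 0.353 to 4.89 ± 0.252 CPM (SD, n = 3). Without CAAHR replicate 36 the edgeR adjusted p was 0.0515 for Actc1 and 0.0503 for Myl4, and without GFP replicate 43 it was 0.0606 for Myl4. The embryonic Myh3 and perinatal Myh8 together made up 0.0518%, 0.0516% and 0.0720% of counts of 6 myosin heavy chain genes in CAAHR muscles and 0.0548%, 0.0561% and 0.0579% in GFP muscles. The groups overlapped (exact two-sided permutation test, p = 1.0). The sign of the difference turned without CAAHR replicate 36 and when all counts were the denominator. Myh8 had more counts than Myh3 in every library, so the share mostly follows Myh8 and does not describe Myh3 alone. The genes were fitted in opposite directions, with a log2 fold change of 0.668 for Myh3 and -0.246 for Myh8. Neither was called (edgeR adjusted p 0.344 and 0.501), and the groups overlapped for each. Myh3 was called in 1 of the 6 fits that left out a library. The list of 12 proliferation genes had 4 called, all lower, and a median log2 fold change of -1.26. Mki67, which marks dividing cells of any type, was at 0.256 ± 0.0557 against 1.69 ± 0.860 CPM (SD, n = 3), and Top2a at 0.316 ± 0.0381 against 1.23 ± 0.351 CPM. Both were called with any library left out. Rrm2 lost its call in 4 of the 6 fits that left out a library and Ccnb1 in 5 of the 6. Rrm2 was not called without CAAHR replicate 36 or GFP replicate 42, 43 or 46 (edgeR adjusted p from 0.0516 to 0.0938), and Ccnb1 was called without CAAHR replicate 34 alone (from 0.0558 to 0.113 in the others). Ccnb1 had 0, 4 and 2 counts in CAAHR and 11, 20 and 13 in GFP muscles. It passed the low-count filter only through its GFP libraries. With the filter of 10 counts in every library Ccnb1 was not tested, and 3 proliferation genes were called. The most abundant genes of the list, Pcna and Mcm2, were fitted near no change, at 0.009 and -0.012 on the log2 scale. Pcna was at 19.7 CPM in CAAHR and 19.58 in GFP muscles, and Mcm2 at 13.35 and 13.47. The called genes moved in the same direction as the leukocyte markers, and the cells they came from were not tested.

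**Figure D3:**
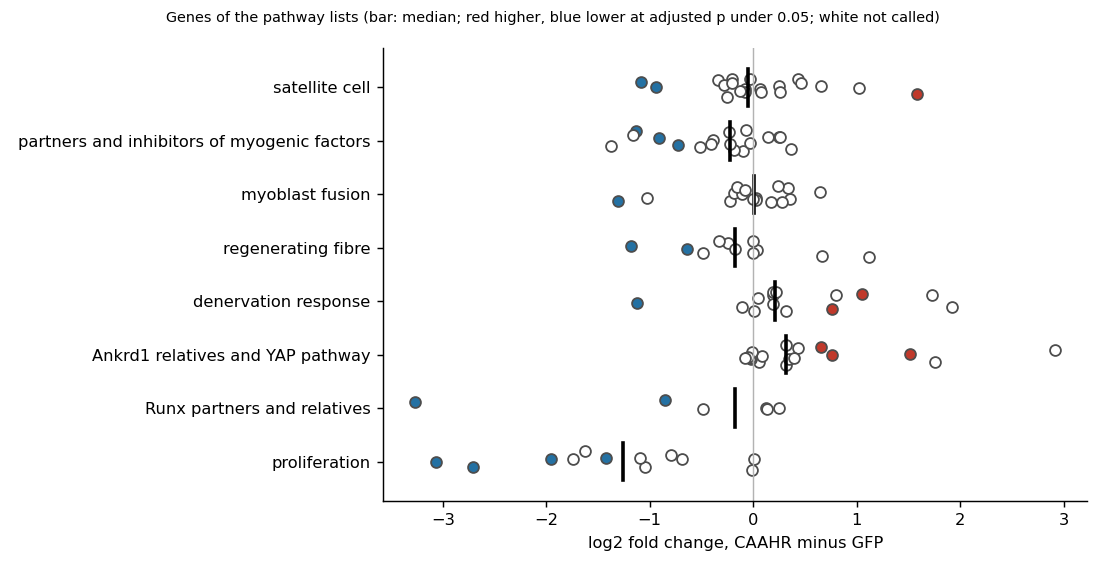
Log2 fold change, CAAHR minus GFP, of each tested gene in the 8 lists, with a bar at the list's median, red for genes called higher, blue for genes called lower and white for genes not called. Called genes on the lists of Ankrd1 relatives are all higher (3), and those of the proliferation list (4) and of partners and inhibitors (3) are all lower.

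Of the denervation response list, 14 of 16 genes were tested and 3 were called, 2 higher and 1 lower, with a median log2 fold change of 0.21. Of the 14, 12 were fitted higher, where 8112 of all 15847 tested genes were. The list was not sorted by the direction that each gene takes after loss of the nerve. The tally is therefore no count of genes that changed as in denervation. Dach2 had the highest fitted change, 1.92, and was not called (edgeR adjusted p 0.0981). It was at 7.85, 2.275 and 4.64 CPM in CAAHR replicates 31, 34 and 36, lowest in 34 as the slow fibre markers were. In GFP replicates 42, 43 and 46 it was at 0.56, 1.59 and 1.74 CPM. The direction Dach2 takes after loss of the nerve was not assessed here. Also on the list, Musk (0.009), Chrna1 (0.196), Fbxo32 (-0.109) and Trim63 (0.19) had log2 fold changes whose intervals include no change. Chrnb1 and Chrnd, subunits of the muscle acetylcholine receptor, rose. Chrnb1 was at 44.4, 59.8 and 53.0 CPM in CAAHR replicates 31, 34 and 36 against 37.1, 29.7 and 25.8 CPM in GFP replicates 42, 43 and 46, a log2 fold change of 0.77 ± 0.15 (SE, edgeR adjusted p 0.0193). Chrnd was at 3.94, 2.52 and 4.18 CPM against 1.97, 1.47 and 1.68 CPM, a log2 fold change of 1.05 ± 0.23 (SE, edgeR adjusted p 0.0260). Neither gene's groups overlapped, and 15% of all tested genes did not overlap in this direction. Gadd45a, a stress gene that rises sharply when the nerve is cut, went the other way, from 24.2, 21.1 and 16.3 CPM to 11.4, 8.70 and 8.17 CPM. Its log2 fold change was -1.12 ± 0.17 (SE, edgeR adjusted p 0.00654), and it was called with any library left out. Chrnb1 lost its call without CAAHR replicate 36 or GFP replicate 43 or 46 (edgeR adjusted p from 0.0665 to 0.069). Chrnd lost it without any of these or CAAHR replicate 31 (from 0.0866 to 0.108).

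The embryonic subunit gene Chrng, which returns in denervated fibres, had 24, 0 and 4 counts in CAAHR muscles and 9, 6 and 5 in GFP muscles, and it was not tested. The adult subunit gene Chrne was at 14.7, 21.7 and 19.3 CPM against 15.4, 14.1 and 14.3 CPM. The log2 ratio of Chrng to Chrne averaged -8.08 ± 3.18 (SD, n = 3) in CAAHR and -6.63 ± 0.421 in GFP muscles, and the groups overlapped (exact two-sided permutation test, p = 0.6). The difference of -1.45 became 0.16 without CAAHR replicate 34, the library with 0 counts of Chrng.

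**Figure D4:**
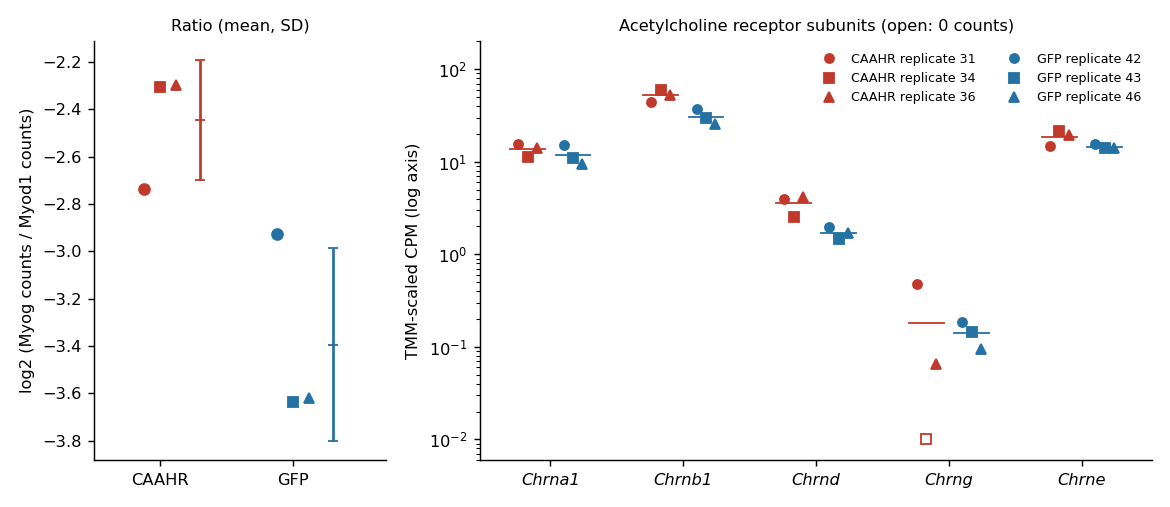
Left, the log2 ratio of Myog to Myod1 counts in each library with the group mean and SD. Right, TMM-scaled CPM (log axis) of acetylcholine receptor subunit genes by library, where lines are group means and the open symbol is 0 counts. The ratio is from -2.74 to -2.29 in CAAHR and from -3.64 to -2.93 in GFP muscles, Chrnb1 and Chrnd are apart between the groups, and Chrna1, Chrng and Chrne overlap.

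The list of Ankrd1 relatives and the YAP pathway held 17 tested genes, of which 3 were called, all higher, with a median log2 fold change of 0.32 and 12 fitted higher, beside 8112 of the 15847 genes tested in all. Xirp1, an actin-binding repair protein of the fibre, rose to 683, 440.5 and 453 CPM from 172, 196 and 182 CPM, a log2 fold change of 1.52 ± 0.17 (SE, edgeR adjusted p 0.00137). Tead4, a TEAD factor that binds CATTCC, rose to 15.0, 14.6 and 16.0 CPM from 9.95, 8.92 and 8.01 CPM, a log2 fold change of 0.77 ± 0.11 (SE, edgeR adjusted p 0.00437). Both were called with any library left out. Ankrd23, a titin-binding relative of Ankrd1, rose 1.58-fold, from 656 ± 48.2 to 1036 ± 136 CPM (SD, n = 3). It lost its call without CAAHR replicate 36 or GFP replicate 43 or 46, with edgeR adjusted p of 0.0771, 0.062 and 0.0749.

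A further pair of the list, picked after their values were seen, went with the slow fibre markers. Ankrd2, another titin-binding relative, was at 247, 53.3 and 254 CPM in CAAHR replicates 31, 34 and 36 and 22.6, 55.1 and 86.0 CPM in GFP replicates 42, 43 and 46. Csrp3, a muscle LIM protein, was at 224, 27.9 and 176 CPM against 10.1, 18.6 and 27.6 CPM. In both, CAAHR replicate 34 lay near the GFP range, as its slow fibre markers did, and neither gene was called (edgeR adjusted p 0.268 and 0.133).

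**Figure D5:**
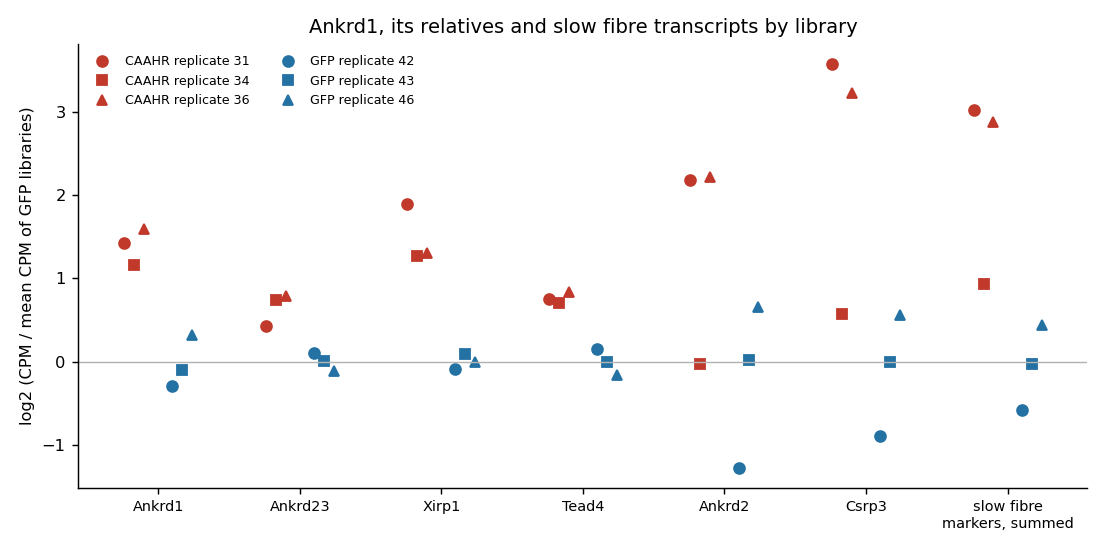
Log2 of CPM over the mean CPM of the GFP libraries for Ankrd1, 5 genes of its list and the summed slow fibre markers, with CAAHR libraries in red, GFP libraries in blue and symbols for replicates. Ankrd1, Ankrd23, Xirp1 and Tead4 are the called genes, and Ankrd2 and Csrp3 were picked after their values were seen. CAAHR replicate 34 (red square) lies within the GFP range for Ankrd2 and just above it for Csrp3.

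Of 6 Runx partners and relatives, 2 were called, both lower, with a median log2 fold change of -0.18. Runx3, the family member of T and NK cells, had 2, 3 and 2 counts in CAAHR muscles against 12, 27 and 20 in GFP muscles, 9.95-fold lower with an exact 95% counting interval from 4.54 to 25.8. Runx1t1 was at 2.15 ± 0.456 against 3.89 ± 0.476 CPM (SD, n = 3), and lost its call without CAAHR replicate 36 or GFP replicate 42, 43 or 46 (edgeR adjusted p from 0.0584 to 0.113). Runx3 was called with any library left out, and it fell beside the leukocyte markers given above. It passed the low-count filter only through its GFP libraries, so its call is description and not support. With the filter of 10 counts in every library Runx3 was not tested, and 1 gene of this list was called.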

How the data were processed

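Polyadenylated RNA was sequenced in paired reads. As described by the authors, Trimmomatic 0.36 removed adapters, STAR 2.5.2b placed reads on GRCm38, and unique exonic reads were summed per gene with featureCounts. The deposited values are these whole-number counts, not normalised and not pooled. Whether the libraries were stranded was not given in the sources used here. Of the 49315 rows, 99.3% were found in GENCODE release M21 (GRCm38), which gave positions and exon lengths. Rows without a symbol held 0.0154% of counts and were kept.

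The test was that of edgeR 4.0.16 in R 4.3.3 (filterByExpr, TMM, robust quasi-likelihood F test, Benjamini-Hochberg adjustment over 15847 genes, threshold 0.05). The paper gives 3 male mice a group for the sequencing, and no pair of libraries of a group agreed within sampling noise (the lowest chi-square was 21.6 times its degrees of freedom). Standard errors were derived from the F statistic. Ratios of counts used a pseudocount of 0.5 and an exact permutation test. Promoters were RefSeq's. The fits were tested on simulated data.

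Alternatives were DESeq2 1.42.0, which the authors used, limma 3.58.1 voom with sample weights, edgeR without robust estimation, 3 other scalings, 2 other filters and leaving out each library. The members and lists were chosen with earlier results of these data known. Named were the 10 members, up to 4 called genes a list with the smallest p-values (or 2 where none was called), genes of the ratios and, for 5 members, the 3 genes with the highest Pearson r of log2 CPM (prior count 2, at least 1 CPM). Mymx, Chrna1, Ankrd2, Csrp3, Dach2, H19, Musk, Fbxo32, Trim63, Pcna and Mcm2 were named after their values were seen. Library totals were from 43432994 to 58825752 counts, and intervals on counts cover counting error only.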

Additional observations from a re-analysis of the deposited data

How the results depend on the processing

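No paired analysis was possible because CAAHR and GFP libraries carry different replicate numbers. Of 128 checks of single members, 111 kept direction and side of the threshold, 7 were stronger, 10 reversed and none was weaker. Weaker means a lost call, so only Ankrd1, the 1 member called in the reported fit, could be weaker. For the other tested members, keeping the side of the threshold means that they were again not called. For Mymk, not tested in the reported fit, the log2 ratio of counts was 2.93 and the fitted values were 2.57 without a filter and 2.84 with DESeq2. Mymk had no side of the threshold to keep. Its checks are among the 111 because both fitted values lay within its counting interval, a ratio from 1.06 to 334. That interval is so wide that these checks say little. Ankrd1 was called in 15 of 15 settings and Myog in 4. The call count of all genes, 1205 as reported, was 2470 without a filter and 1921 with DESeq2. Without a filter 3 members, 7 satellite cell genes, 7 partners and inhibitors and 3 fusion genes were called. With DESeq2 the counts were 3 members, 6 partners and inhibitors and 5 denervation genes. Library size only gave 2 members, voom 4 regenerating fibre genes and the filter of 10 counts in every library 1 Runx gene. The share of lower calls was 60.1% as reported, 73.4% with upper quartile scaling and 40.7% with library size only, and the median of all genes was -0.06 and 0.09 under the latter pair. Myod1 reversed to -0.0225 with upper quartile scaling. The Myh3 and Myh8 share reversed to -0.0002163 percentage points with all counts as denominator.

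With 1 library left out, log2 fold changes ranged from -0.0456 to 0.212 for Myod1, -0.0853 to 0.261 for Pax7, -0.312 to 0.282 for Myf5 and -0.108 to 0.416 for Runx1. Call counts ranged from 530 to 1727 for all genes, 1 to 2 for members, 0 to 3 for partners and inhibitors, 1 to 2 for fusion, 0 to 4 for regenerating fibre, 1 to 5 for denervation, 2 to 4 for satellite cell, Ankrd1 relatives and proliferation, and 1 to 2 for Runx. The log2 ratio difference ranged from -3.02 to 0.156 for Chrng to Chrne and from 0.827 to 1.18 for Myog to Myod1, and that of the myosin share from -0.00452 to 0.00564 percentage points. The cause was not tested. Mymk and Chrng did not pass the low-count filter.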

Other observations

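The genes whose log2 CPM was most like that of a member over the 6 libraries were ranked among 12241 others, as a description of these libraries, in which a difference between the groups enters each correlation. For Ankrd1 they were Pmm1 (Pearson r 0.998), a phosphomannomutase gene, Cox17 (0.997), a copper chaperone of cytochrome oxidase, and Snapc1 (0.994). Each of these was called higher, with a log2 fold change of 1.60, 0.36 and 0.45. For Myog they were Golga2 (0.998), a Golgi matrix protein gene, Bsdc1 (0.995) and Nub1 (0.994), none of them called. For Myod1 they were A430033K04Rik (0.985), Mamstr (0.976), which encodes a coactivator of MEF2 factors, and Pml (0.962), with fitted changes from -0.01 to 0.13. For Pax7 they were Tnrc18 (0.986), 9130023H24Rik (0.983) and Gm20457 (0.982), and for Runx1 they were Ctnnd1 (0.986), Npat (0.986) and Mettl15 (0.985), and none of these 6 was called.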
